A study of Mus musculus with 43 samples.

Results

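The 10 genes described here, Gfap, Vim, Lcn2, Serpina3n, Osmr, Cd44, Steap4, Timp1, Cd109 and Stat3, are genes whose RNA is commonly measured to tell reactive astrocytes from resting ones. They were picked by name, and each matched 1 of the 55416 genes counted in all 43 libraries. Astrocytes answer injury, infection and inflammation by thickening their cytoskeleton, secreting acute phase proteins and changing their surface, a state called reactivity. A main route into it runs from cytokines of the interleukin-6 family, among them oncostatin M, through receptors that share the gp130 subunit and Janus kinases to the transcription factor STAT3. Several of these genes are also used by other cells of the brain, in particular by microglia and by white blood cells.

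The libraries were made from cortical glia of mice aged 3 months, which came as 6 littermate pairs, 1 control and 1 Rag2-/- mouse in each. Rag2 encodes a part of the recombinase that assembles antigen receptor genes, and mice without it have no mature T or B lymphocytes. All cells were taken from each mouse's single suspension by serial immunopanning, in which cells bind to dishes coated with an antibody against CD45 for microglia, PDGFRα for oligodendrocyte precursor cells (OPCs), GalC for oligodendrocytes and HepaCAM for astrocytes, in this order. The comparison asked whether the loss of lymphocytes changed the RNA of glia.

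The control mice of pairs 1, 2, 3 and 5 were Rag2+/- and those of pairs 4 and 6 were Rag2+/+, and the Rag2-/- mice came from crosses of C57BL/6J with the strain B6.Cg-Rag2tm1.1Cgn/J, an inherited deletion that is not limited to a cell type. Both mice were male in pairs 1, 3 and 4 and female in pairs 2 and 5, while pair 6 joined a male control and a female Rag2-/- mouse, so comparisons within pair 6 differ in sex too. Astrocytes and microglia came from 6 control and 6 Rag2-/- mice, OPCs from 6 and 5 (none from the Rag2-/- mouse of pair 5), and oligodendrocytes from 4 and 4 (pairs 1, 3, 5 and 6). Libraries of 1 cell type shared a sequencing lane, so a lane and a cell type cannot be told apart. Rag2 itself had 4 counts in the OPC library of control 6, 1 in each of 2 control microglia libraries and 0 in all others, so it could not check the genotype labels.

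Each library held 6499417 to 23118497 counts on genes. Levels are given as normalised CPM, in which a gene's count is taken relative to the total of its library and each total is corrected with edgeR's TMM factors over all 43 libraries. Differences between 2 groups are log2 fold changes with their standard error (SE) from edgeR's quasi-likelihood test, and a gene was called at a Benjamini-Hochberg adjusted p under 0.05 over all genes tested. Counts of mitochondrial genes took 6.75% to 11.7% of microglia libraries and 45.8% to 60.1% of oligodendrocyte libraries, which moves any scale based on the total count. Markers of the panned cells were at their highest in the libraries of that label: the summed level of 8 astrocyte markers was 18692 to 22432 CPM in astrocyte libraries, against 1329 to 3698 in oligodendrocyte, 2106 to 5843 in OPC and 186 to 291 in microglia libraries. The sum of 8 microglia markers was 8017 to 10204 CPM in microglia libraries, 162 to 870 in OPC, 292 to 1164 in oligodendrocyte and 69.5 to 304 in astrocyte libraries. That of 7 OPC markers was 4880 to 6406 CPM in OPC, 1071 to 1456 in astrocyte, 419 to 1574 in oligodendrocyte and 11.5 to 78.2 in microglia libraries. That of 8 oligodendrocyte markers was 27973 to 37507 CPM in oligodendrocyte, 3756 to 6691 in astrocyte, 353 to 1418 in OPC and 77.2 to 130 in microglia libraries. In such bulk samples fewer cells of a type and less RNA per cell cannot be told apart.

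The genes fell into 3 patterns over the cell types. Gfap and Osmr were highest in astrocytes, Serpina3n was highest in OPCs, and Vim, Cd44, Stat3, Lcn2 and Steap4 were highest in microglia. Timp1 and Cd109 were near 0 in every cell type. The study states that its CD45 antibody may also capture some peripheral macrophages, lowered in number by perfusion. In microglia libraries 7 border macrophage markers summed to 350 to 856 CPM, against 8017 to 10204 for the 8 microglia markers. The part of macrophage RNA in the levels of microglia libraries was not tested. For genotype 0 of the 10 genes were called in each cell type, where 0.00679% of all genes tested were called in astrocytes, 0% in oligodendrocytes, 0.00592% in OPCs and 0.00667% in microglia.

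**Figure D1:**
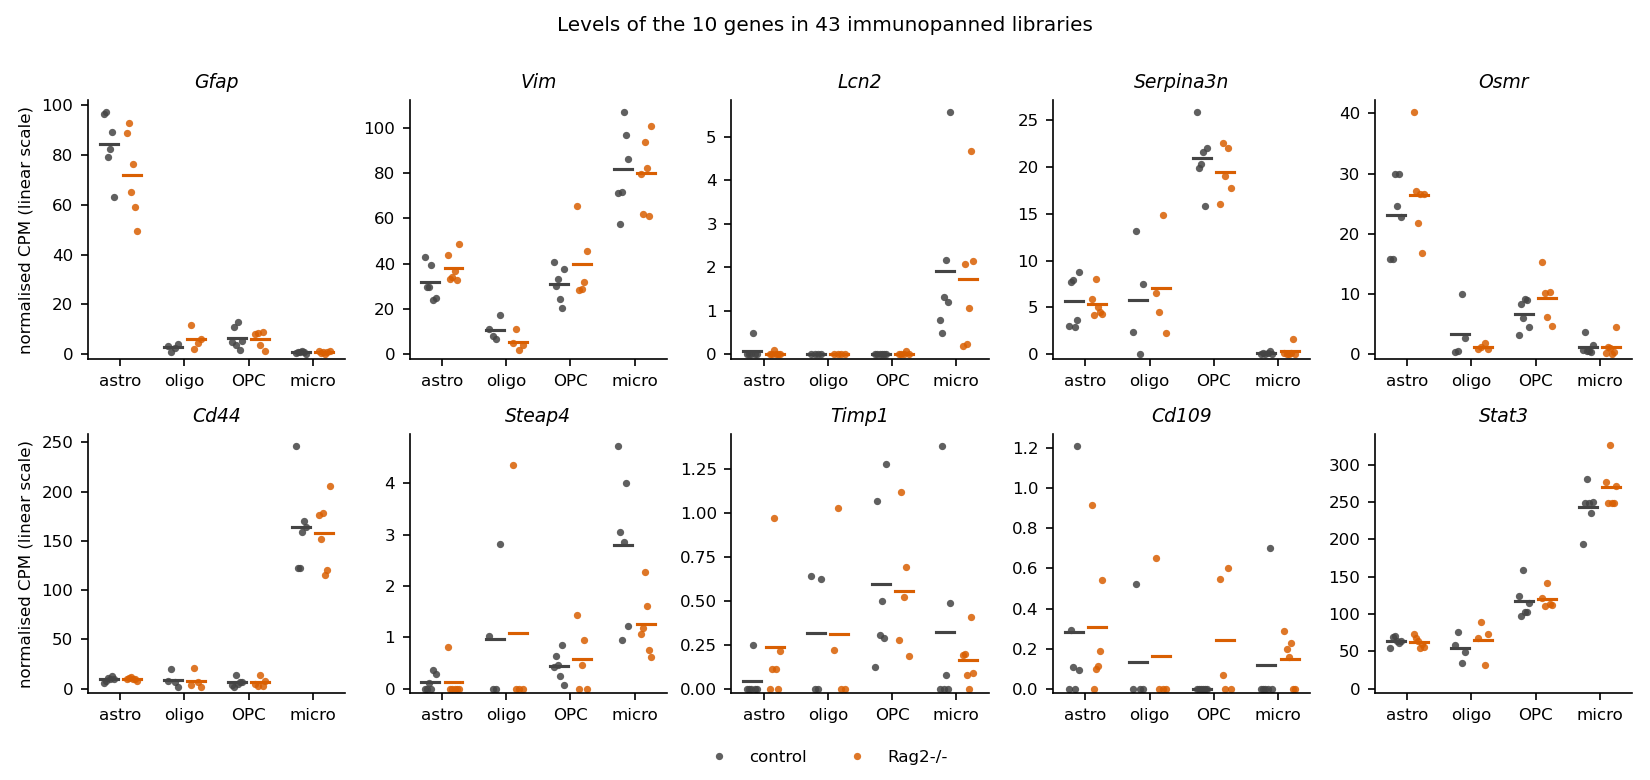
Normalised CPM (linear scale, a separate axis for each gene) of the 10 genes in astrocyte (astro), oligodendrocyte (oligo), OPC and microglia (micro) libraries, with 1 point per library, control in grey and Rag2-/- in orange, and bars at the group means. Gfap and Osmr stand highest in astrocytes, Serpina3n in OPCs, and Vim, Cd44, Stat3 and Lcn2 in microglia, and the ranges of control and Rag2-/- libraries overlap for each gene in each cell type.

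In a joint fit of all libraries with mouse as a block, 8 of the 10 genes passed the filter on low counts (not Timp1 and Cd109). Between astrocytes and oligodendrocytes 4 of these 8 were called, 3 higher and 1 lower in astrocytes, where 48.6% of all genes tested were called (23.7% higher, 24.9% lower). Between astrocytes and OPCs 6 were called, 3 in each direction, with 43.1% of all genes called (17.8% higher, 25.3% lower). Between astrocytes and microglia 8 were called, 3 higher and 5 lower in astrocytes, with 72% of all genes called (37.9% higher, 34.1% lower). Between oligodendrocytes and OPCs 4 were called, all lower in oligodendrocytes, where 38.5% of all genes were called, 14.9% higher and 23.5% lower. Between oligodendrocytes and microglia 7 were called, 5 of them lower in oligodendrocytes (background 67.9%, 33.5% higher and 34.4% lower), and between OPCs and microglia 8, 5 of them lower in OPCs (background 71.3%, 39.8% higher and 31.6% lower). The median difference of the 8 genes between astrocytes and microglia was -1.61, beside 0.12 over all genes.

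The scale matters for contrasts with oligodendrocytes. When libraries were scaled to their total counts instead, the median difference of all genes went from 0.03 to 0.68 for astrocytes against oligodendrocytes, from -0.13 to -0.53 for astrocytes against OPCs, from 0.12 to -0.18 for astrocytes against microglia, from -0.26 to -1.32 for oligodendrocytes against OPCs and from -0.09 to -1.04 for oligodendrocytes against microglia. The share of called genes that were higher in the first of these cell types went from 48.8% to 77%, from 41.3% to 20.2%, from 52.6% to 44.5%, from 38.8% to 6.06% and from 49.3% to 28.3%. For OPCs against microglia this share went from 55.8% to 68.6% with totals that left out mitochondrial genes, and the median from 0.18 to 0.64. None of the called differences of the 8 genes changed its direction on either of these scales.

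The sequence at the start of each gene was read from GRCm39 for motifs of factors that drive reactive and inflammatory genes. The STAT motif TTCNNNGAA was in 0 of 10 windows from 250 bases before to 50 after the start of the canonical transcript, where 8.85% of 21627 such windows of protein-coding genes held it on either strand. The AP-1 motif TGANTCA was in 1 (Cd109, background 7.16%) and the NF-κB motif GGGANNNCC in 4 (Gfap, Vim, Cd44 and Steap4, background 19.4%). The 250 bases before the start are shown for Vim (chr2:13578513-13578762, plus strand), Cd44 (chr2:102732011-102732260, minus strand) and Steap4 (chr5:8010010-8010259, plus strand), the genes highest in microglia that hold the NF-κB motif there, 5′ to 3′ with its match in capitals. In Gfap the match lies after the start, in the transcript.
Vim: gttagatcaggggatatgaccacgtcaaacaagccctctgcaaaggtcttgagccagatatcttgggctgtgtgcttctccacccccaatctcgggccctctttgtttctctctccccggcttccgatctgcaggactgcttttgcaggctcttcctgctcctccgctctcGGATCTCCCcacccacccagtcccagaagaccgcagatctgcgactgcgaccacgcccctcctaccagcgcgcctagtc
Cd44: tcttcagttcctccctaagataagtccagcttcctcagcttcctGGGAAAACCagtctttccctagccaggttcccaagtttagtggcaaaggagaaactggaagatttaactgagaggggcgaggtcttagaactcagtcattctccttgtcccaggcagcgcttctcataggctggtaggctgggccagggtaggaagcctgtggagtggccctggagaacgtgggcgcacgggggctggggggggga
Steap4: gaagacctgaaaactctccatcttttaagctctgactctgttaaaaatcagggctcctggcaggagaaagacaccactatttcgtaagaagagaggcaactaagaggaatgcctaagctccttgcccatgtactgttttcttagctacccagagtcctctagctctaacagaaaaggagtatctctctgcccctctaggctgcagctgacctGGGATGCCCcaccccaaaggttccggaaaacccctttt
A match of letters is a description of the window and not of a bound site.

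Gfap and Vim encode intermediate filament proteins, GFAP being the filament by which astrocytes are stained and vimentin a filament of many mesenchymal and immature cells. Gfap (ENSMUSG00000020932) lies on the minus strand at chr11:102778159-102791738 and Vim (ENSMUSG00000026728) on the plus strand at chr2:13578738-13587639 of GRCm39. Exons of Vim overlap those of a gene on the other strand, Gm54102, over 12.3% of their length, and counts of overlapping genes are uncertain since the strand setting of the counting is not given in the sources used here.

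Gfap was at 63.0 to 97 CPM with a median of 85.5 in the 6 control astrocyte libraries and at 49.5 to 92.5 with a median of 70.6 in the 6 Rag2-/- ones. It was 17.1-fold higher in astrocytes than in oligodendrocytes (log2 4.10, SE 0.38, adjusted p = 4.53e-11), 13.6-fold higher than in OPCs (3.77, SE 0.32, adjusted p = 4.47e-12) and 97.8-fold higher than in microglia (6.61, SE 0.36, adjusted p = 4.21e-18). The ranges of astrocytes and of the other cells did not overlap, the highest other library being an OPC library at 12.8 CPM. Per kb of exons Gfap was the most abundant of the 10 genes in astrocytes, at 13.7 ± 2.76 CPM per kb (SD, n = 12), followed by Vim at 7.37 ± 1.61 and Stat3 at 6.25 ± 0.62.

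The Gfap that was counted outside astrocytes stood near the level of other astrocyte markers there. Its mean level was 5.74% of the astrocyte level in oligodendrocyte, 8.28% in OPC and 1.05% in microglia libraries. The 8 astrocyte markers had a median of 4.91% (3.41% to 12.6% over the markers) in oligodendrocyte libraries, 11.3% (9.43% to 17.1%) in OPC and 0.689% (0.469% to 3.58%) in microglia libraries. Gfap thus lay within the range of these markers in oligodendrocytes and microglia and below it in OPCs. The part of astrocyte RNA in these values was not tested.

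The genotype difference of Gfap in astrocytes was -0.24 on the log2 scale (SE 0.16, 95% interval -0.57 to 0.10, adjusted p = 1). Its level was lower in the Rag2-/- mouse in each of the 6 pairs. For this and the other counts of pairs, the share of all genes that went 1 way in every pair is not given here. In oligodendrocytes the control libraries of pairs 1, 3, 5 and 6 had 3.32, 1.05, 2.52 and 4.23 CPM and the Rag2-/- libraries 11.6, 2.06, 4.71 and 6.34. There the Rag2-/- mouse was the higher one in each of the 4 pairs, yet the groups overlapped and the difference of 1.17 had an SE of 0.89 (adjusted p = 0.998). Without the Rag2-/- library of pair 1 it was 0.25. In the same order of pairs the astrocyte markers summed to 1551, 1329, 2164 and 3698 CPM in control libraries. In Rag2-/- libraries they summed to 1958, 1527, 2705 and 2007, so pair 6 went the other way. Their part in this difference was not tested. The difference between cell types in the genotype effect of Gfap was not called either (F test of the interaction in edgeR, adjusted p = 1). In OPCs the difference was -0.11 (SE 0.52) and in microglia 0.07 (SE 0.59).

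**Figure D2:**
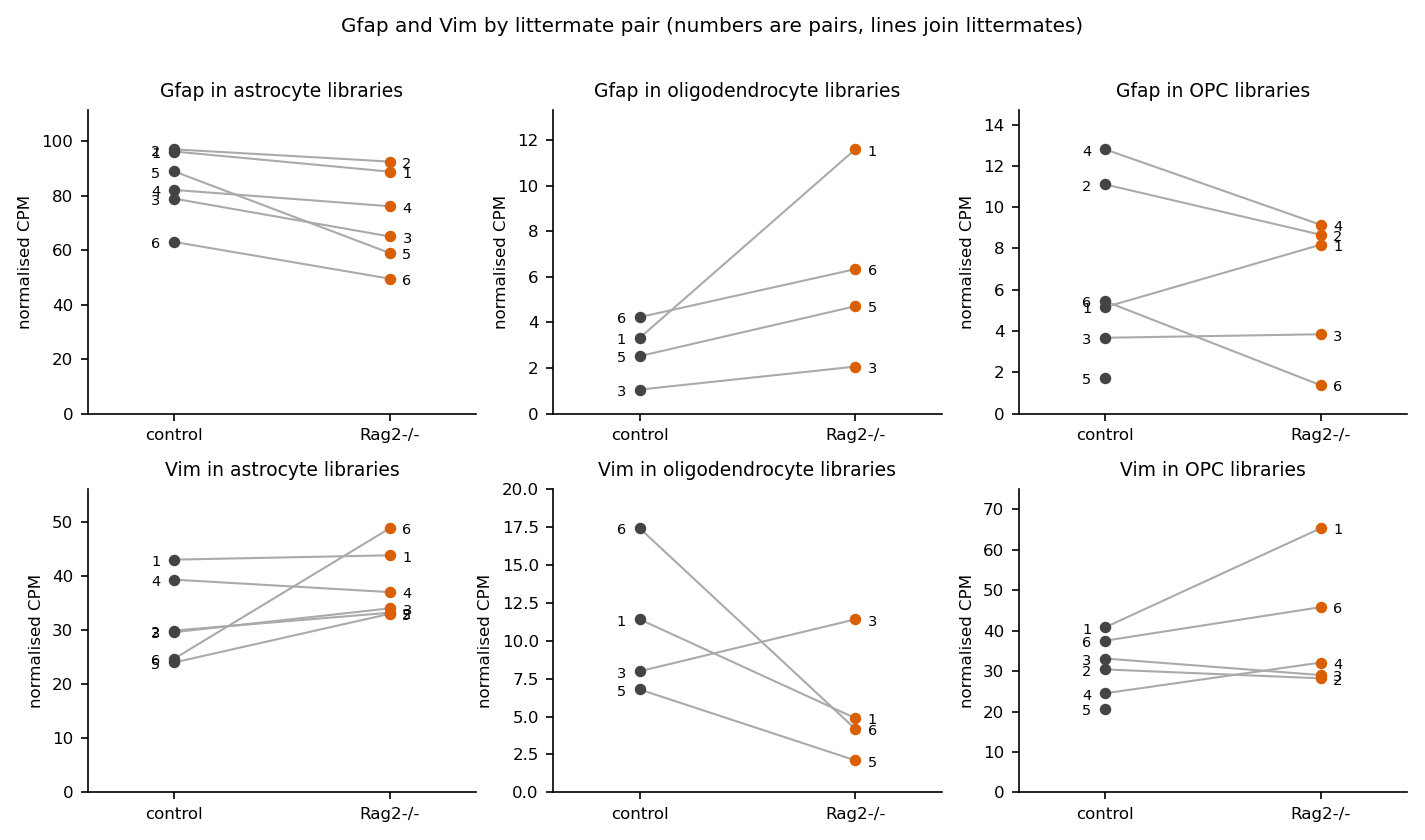
Normalised CPM (linear axes from 0) of Gfap and Vim in astrocyte, oligodendrocyte and OPC libraries of control (grey) and Rag2-/- (orange) mice, with numbers for the littermate pair and lines joining littermates. Gfap goes down from control to Rag2-/- in 6 of 6 astrocyte pairs and up in 4 of 4 oligodendrocyte pairs, with overlapping groups in both.

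Vim had its highest level in microglia, at 57.7 to 107 CPM with a median of 81.1 over 12 libraries. In astrocytes it was at 24 to 48.8 (median 33.6), 2.31-fold lower than in microglia (log2 -1.20, SE 0.19, adjusted p = 8.14e-07) and 4.57-fold higher than in oligodendrocytes (2.19, SE 0.24, adjusted p = 2.35e-09). OPCs at 20.6 to 65.3 CPM (median 32.1) overlapped astrocytes almost entirely, and this pair of neighbours in the order was not told apart (0.07, SE 0.19, 95% interval -0.33 to 0.46). That sign turned to -0.35 with total counts and to -0.21 without mitochondrial genes, uncalled on both scales.

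For genotype, Vim differed by 0.30 (SE 0.18, 95% interval -0.07 to 0.67, adjusted p = 1) in astrocytes and was higher in the Rag2-/- mouse in 5 of 6 pairs. It differed by -0.81 (SE 0.67) in oligodendrocytes, by 0.38 (SE 0.23) in OPCs and by -0.01 (SE 0.15) in microglia. Vascular and connective tissue cells also hold vimentin, so the levels of their markers were read for each genotype. In oligodendrocytes the sum of 7 mural cell markers was 13.8 to 125 CPM (mean 59.9) in control and 10.9 to 50.2 (mean 30.9) in Rag2-/- libraries, the latter without Tagln, and that of 6 fibroblast markers 2.62 to 20.7 and 0.257 to 2.83, with Lum and Dpt at 0 in both. The median difference of the 5 mural markers past the filter was -2.39 there, beside 0.00 over all genes, with Acta2 and Notch3 at an unadjusted p under 0.05. In OPCs the mural sum was 86.5 to 244 CPM (mean 142) in control and 107 to 342 (mean 223) in Rag2-/- libraries, and that of 8 endothelial markers 24.3 to 58.4 (mean 37.9) and 29 to 94 (mean 62.3), while that of the fibroblast markers had means of 36.8 and 33.4. In astrocytes the means of control and Rag2-/- libraries were 140 and 138 CPM for mural, 15.3 and 13.5 for fibroblast and 16.5 and 17.3 for endothelial markers, and in microglia 31.5 and 36.1, 5.28 and 5.31, and 33.1 and 36.6. None of these markers was called for genotype within a cell type, 1 (Notch3) was called for the interaction of genotype with cell type, and their part in the Vim values was not tested. The interaction of genotype with cell type had an unadjusted p under 0.05 and an adjusted p of 0.564 in edgeR for Vim, so it was not called. With 9 of the 10 genes past the filter of this fit, 0 were called (background 0.0234%).

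Osmr, which encodes the subunit that binds oncostatin M and pairs with gp130, and Stat3, the factor downstream of it, did not share a pattern. Osmr (ENSMUSG00000022146) lies on the minus strand at chr15:6843053-6904450 and Stat3 (ENSMUSG00000004040) on the minus strand at chr11:100775924-100830450. Exons of Stat3 overlap other genes over 6.89% of their length, among them Stat5a.

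Osmr was at 15.8 to 29.9 CPM (median 23.7) in control and 16.8 to 40.2 (median 26.7) in Rag2-/- astrocytes. It was 13.3-fold higher in astrocytes than in oligodendrocytes (log2 3.73, SE 0.55, adjusted p = 5.43e-07), 3.36-fold higher than in OPCs (1.75, SE 0.41, adjusted p = 0.000645, a call lost in Rag2-/- libraries alone at 1.59, adjusted p = 0.0594) and 22.3-fold higher than in microglia (4.48, SE 0.47, adjusted p = 1.21e-10). No library of another cell type reached 15.8 CPM, the closest being an OPC library at 15.3. Oligodendrocytes and microglia, the lowest in the order, were not told apart (0.75, SE 0.54, adjusted p = 0.221).

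In OPCs Osmr was at 31.8% of its astrocyte level, above the 9.43% to 17.1% of the astrocyte markers. Control OPC libraries of pairs 1 to 6 had 3.21, 8.32, 5.96, 9.19, 9.09 and 4.5 CPM, and Rag2-/- libraries of pairs 1, 2, 3, 4 and 6 had 15.3, 10.2, 6.18, 10.3 and 4.66. The Rag2-/- mouse was higher in each of the 5 pairs, and the groups overlapped (0.48, SE 0.36, adjusted p = 1). The sum of the 8 astrocyte markers was 2106 to 3125 CPM in control and 2447 to 5843 in Rag2-/- OPC libraries. It was highest in the Rag2-/- mouse of pair 1, where Osmr was also highest. Of these 8 markers 7 had an unadjusted p under 0.05 for genotype in OPCs and 0 were called, with a median difference of 0.64 beside -0.01 over all genes. Their part in the Osmr values was not tested. In astrocytes the genotype difference of Osmr was 0.22 (SE 0.22, adjusted p = 1), and it ran from 0.03 to 0.41 with each library left out.

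Stat3 was counted in all libraries, lowest in oligodendrocytes and astrocytes, higher in OPCs and highest in microglia. It was at 32 to 89.3 CPM (median 62.9) in oligodendrocytes, 54.0 to 72.6 (median 63.5) in astrocytes, 97.3 to 159 (median 113) in OPCs and 194 to 326 (median 249) in microglia. Astrocytes were 1.83-fold lower than OPCs (log2 -0.87, SE 0.10, adjusted p = 8.79e-09) and 4.04-fold lower than microglia (-2.01, SE 0.10, adjusted p = 3.78e-19), and their ranges did not overlap. Astrocytes and oligodendrocytes were not told apart (0.15, SE 0.12, adjusted p = 0.293), although astrocytes were called higher by 0.81 with total counts and by 0.31 without mitochondrial genes. The lowest oligodendrocyte libraries were the 2 of pair 5, at 33.9 in the control and 32 in the Rag2-/- mouse, against 49.1 to 89.3 in the other 6, and without them the difference was -0.04.

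Of the genes tested here Stat3 had the narrowest intervals for genotype. The difference was -0.04 (95% interval -0.28 to 0.21) in astrocytes, 0.04 (-0.20 to 0.28) in OPCs, 0.16 (-0.05 to 0.38) in microglia and 0.44 (-0.28 to 1.16) in oligodendrocytes. None was called.

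Other genes of the gp130 route were measured from a list of 25, which holds Osmr and Stat3. Of 21 that passed the filter, 5 were higher and 13 lower in astrocytes than in microglia, 9 were higher and 3 lower than in oligodendrocytes, and 5 were higher and 7 lower than in OPCs. Of all genes 37.9% were called higher and 34.1% lower than in microglia, 23.7% and 24.9% than in oligodendrocytes and 17.8% and 25.3% than in OPCs. Cntfr, the receptor of ciliary neurotrophic factor, was at 234 ± 32.5 CPM in astrocytes (SD, n = 12) and 2.05 ± 1.18 in microglia (log2 6.90, adjusted p = 7.32e-22). Il6st, which encodes gp130, was at 102 ± 14.1 CPM in astrocytes and 297 ± 32.1 in microglia (-1.55, adjusted p = 8.42e-17), and the kinase gene Jak1 at 95.3 ± 11.2 and 388 ± 49.1 (-2.03, adjusted p = 4.59e-15). Ptpn11, a phosphatase gene of the route, was at 105 ± 11.8 CPM in astrocytes and 303 ± 35.5 in oligodendrocytes (-1.54, adjusted p = 1e-14). The ligand gene Osm, named here after its values were seen, was at 62.0 ± 4.8 CPM in microglia and 0.440 ± 0.826 in astrocytes (-7.80, adjusted p = 3.32e-13), so that the receptor subunit Osmr and its ligand were highest in different cells. For genotype 0 genes of this list were called in any cell type, where 17, 15, 18 and 20 of them passed the filter in astrocytes, oligodendrocytes, OPCs and microglia.

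Lcn2, Serpina3n and Timp1 encode secreted proteins: lipocalin 2 binds iron-carrying siderophores of bacteria and is also stored in granules of neutrophils, Serpina3n inhibits serine proteases, and TIMP-1 inhibits matrix metalloproteinases. Lcn2 (ENSMUSG00000026822) lies on the minus strand at chr2:32274645-32278264, Serpina3n (ENSMUSG00000021091) on the plus strand at chr12:104372810-104380597 and Timp1 (ENSMUSG00000001131) on the plus strand at chrX:20736316-20740976. Of the windows of 50 bases along the longest transcript, 3.87% in Serpina3n had an exact copy elsewhere in the genome, mainly in other genes of the Serpina3 cluster, and 3.52% in Timp1.

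Lcn2 was all but absent from astrocytes. The 12 astrocyte libraries held 5 counts of it in all, 4 of them in control 4, the 8 oligodendrocyte libraries held 0 and the 11 OPC libraries 1. A count of 0 allows up to 3 counts, which is 0.326 to 0.581 CPM in oligodendrocyte libraries. Every microglia library held some, from 2 to 91 counts, at 0.493 to 5.56 CPM (median 1.26) in control and 0.193 to 4.67 (median 1.57) in Rag2-/- mice. The mean of microglia was at least 4.22-fold higher than the mean floor of 3 counts per oligodendrocyte library. It was called higher than in astrocytes (adjusted p = 4.7e-07) and in OPCs (adjusted p = 3.12e-08). Genotypes overlapped in microglia, with a difference of -0.66 (SE 0.80, adjusted p = 0.999) that ran from -1.37 without control 2 to -0.05 without control 6.

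Among microglia libraries Lcn2 varied with genes of neutrophils and monocytes, which an antibody against CD45 also binds. The mice had been perfused with saline before dissection, a step that lowers the number of blood cells. Both high libraries, control 6 at 5.56 CPM and Rag2-/- 5 at 4.67, had a summed level of 9 such markers of 34.9 and 99.7 CPM, where the other 10 had 9.92 to 35.0. Over the 12 libraries Pearson's r of the log2 levels was 0.74 (permutation p = 0.00372) and Spearman's rho 0.76 (p = 0.00608), and r was 0.56 without the 2 libraries farthest from the median of the marker sum. With the mean of each littermate pair removed, which leaves only the differences within 6 pairs, r was 0.81 (exact permutation over pairs, p = 0.0246). This relation was looked for after the levels had been seen. All 9 markers had counts in microglia, S100a9 from 34 to 660, while Ly6g had at most 2, and the list summed to at most 2.68 CPM in libraries of other cells, where S100a9 was at 0 in astrocytes and oligodendrocytes. Whether these cells supplied the Lcn2 was not tested.

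**Figure D3:**
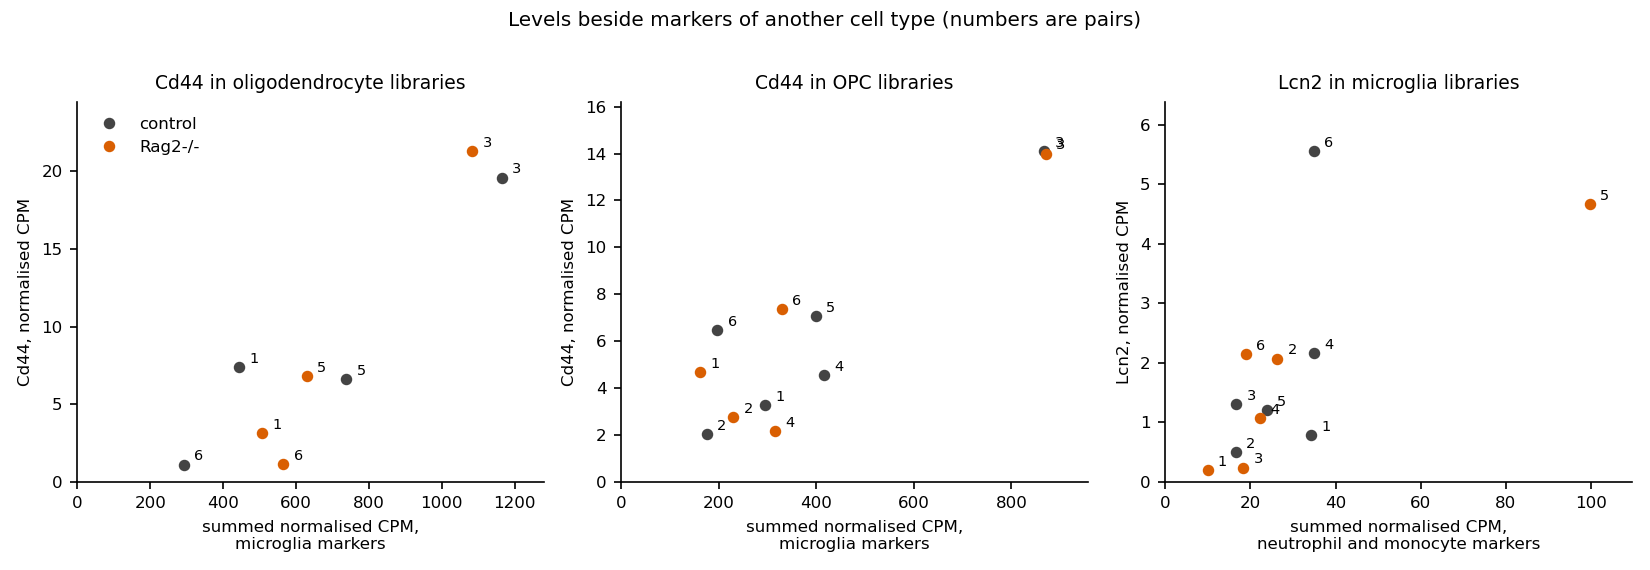
Normalised CPM (linear axes from 0) of Cd44 in oligodendrocyte and OPC libraries against the summed CPM of 8 microglia markers, and of Lcn2 in microglia libraries against the summed CPM of 9 neutrophil and monocyte markers, with 1 point per library, numbers for the littermate pair, control in grey and Rag2-/- in orange. Both mice of pair 3 stand apart in Cd44 and in microglia markers, and the 2 highest Lcn2 libraries are control 6 and Rag2-/- 5.

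Serpina3n was highest in OPCs and not in astrocytes. It was at 15.8 to 25.8 CPM (median 20.3) in 11 OPC libraries and at 2.87 to 8.76 (median 4.81) in 12 astrocyte libraries, with no overlap. The 7 OPC markers summed to 1071 to 1456 CPM in these astrocyte libraries, against 4880 to 6406 in OPC libraries. The part of OPC RNA in the astrocyte values was not tested. OPCs were 4.21-fold higher than astrocytes (log2 of astrocytes over OPCs -2.08, SE 0.39, adjusted p = 4.34e-05), 4.91-fold higher than oligodendrocytes (-2.29 for oligodendrocytes over OPCs, SE 0.49, adjusted p = 0.000271) and 124-fold higher than microglia (6.96, SE 0.53, adjusted p = 3.9e-14). Oligodendrocyte libraries ranged from 0 in control 5 to 14.9 CPM in Rag2-/- 5, and their level was not told apart from astrocytes (0.22, SE 0.44, adjusted p = 0.712). In microglia 11 of 12 libraries were at or under 0.4 CPM and Rag2-/- 5, the library with most neutrophil markers, was at 1.62.

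The genotype difference of Serpina3n was -0.05 (95% interval -0.75 to 0.64) in astrocytes and -0.11 (-0.47 to 0.26) in OPCs, both with an adjusted p of 1. In oligodendrocytes it was 0.81 with an SE of 1.58.

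Timp1 had 16 counts in 12 astrocyte, 19 in 8 oligodendrocyte, 89 in 11 OPC and 35 in 12 microglia libraries. Its highest level was 1.38 CPM, in 1 control microglia library, and it was at 0 in 7 of 12 astrocyte libraries. It did not pass the filter of the genotype fits within a cell type or of the cell type contrasts, and in the interaction fit, whose filter it passed, its adjusted p was 1. Without the filter it differed by -2.32 between astrocytes and OPCs (adjusted p = 0.0478 in edgeR and 0.0217 in DESeq2). In the same list of 14 metalloproteinases and inhibitors, Timp3 was at 353 ± 47.7 CPM, Timp4 at 118 ± 19.3 and Timp2 at 73.1 ± 10.7 in astrocytes (SD, n = 12), and the membrane protease gene Mmp14 at 42.1 ± 8.36. Timp3 and Timp4 were called higher in astrocytes than in each of the other cells, by 2.90 and 2.58 over oligodendrocytes, 1.04 and 0.93 over OPCs and 5.79 and 6.33 over microglia on the log2 scale. Of the 12 genes of this list past the filter, 9 were called between astrocytes and oligodendrocytes, 7 between astrocytes and OPCs and 11 between astrocytes and microglia, where 48.6%, 43.1% and 72% of all genes were called.

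Cd44, Steap4 and Cd109 encode proteins of the cell surface or membrane: CD44 binds hyaluronan, STEAP4 reduces iron and copper ions, and CD109 is an anchored protein that binds TGF-β. Cd44 (ENSMUSG00000005087) lies on the minus strand at chr2:102641486-102732010, 1.18 Mb from Rag2, Steap4 (ENSMUSG00000012428) on the plus strand at chr5:8010260-8032214 and Cd109 (ENSMUSG00000046186) on the plus strand at chr9:78522735-78623558. Exons of Steap4 overlap other genes over 7.73% of their length those of Cd44 over 3.06% and those of Cd109 over 2.92%.

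Cd44 was at 115 to 246 CPM (median 161) in microglia and at 5.88 to 12.9 (median 9.94) in astrocytes, 16.7-fold apart (log2 -4.07, SE 0.30, adjusted p = 1.35e-14). Microglia were also 27-fold higher than oligodendrocytes (adjusted p = 1.87e-13) and 30.4-fold higher than OPCs (adjusted p = 7.2e-16). Astrocytes were called higher than OPCs (0.86, SE 0.29, adjusted p = 0.0154), a call that was lost with total counts (0.47), without mitochondrial genes (0.60) and without the mouse block (0.69). Astrocytes and oligodendrocytes were not told apart (0.69, SE 0.34, adjusted p = 0.092), but were with total counts (1.31) or without pair 3 (1.36).

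The OPC and oligodendrocyte libraries with the highest Cd44, those of pair 3, also had the highest sums of microglia markers. The control and Rag2-/- OPC libraries of pair 3 had 14.1 and 14 CPM, against 2.03 to 7.36 in the other 9, and their microglia markers summed to 867 and 870 CPM, against 162 to 415. The same mice had 19.6 and 21.3 CPM of Cd44 in oligodendrocytes, against 1.1 to 7.41 in the other 6 libraries, and microglia markers of 1164 and 1084, against 292 to 738. Among the libraries of the other pairs the order of Cd44 did not follow that of the markers throughout, and the relation was not tested. The mean of Cd44 was 3.87% of its microglia level in OPCs, where the 8 microglia markers had a median of 4.2% (3.81% to 5.48%). It was 5.22% in oligodendrocytes, where they had 7.28% (5.74% to 11.1%). In astrocytes it was 6.09% and the markers had 1.48% (1.09% to 2.69%), so only there did Cd44 lie above their range. The part of microglia RNA in these values was not tested.

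For genotype Cd44 differed by 0.08 (SE 0.22) in astrocytes, -0.01 (SE 0.92) in oligodendrocytes, 0.02 (SE 0.49) in OPCs and -0.04 (SE 0.17) in microglia. Groups overlapped in all of them.

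Steap4 was low throughout and highest in microglia. Its 12 astrocyte libraries held 14 counts, 7 of them in Rag2-/- 1, and microglia had 0.624 to 4.72 CPM. Microglia were higher than astrocytes (log2 of astrocytes over microglia -4.85, SE 0.84, adjusted p = 3.73e-06), oligodendrocytes (-2.50, SE 0.90, adjusted p = 0.0146, a call lost without pair 3 at -1.92 and without the oligodendrocyte libraries of pair 5 at -1.95) and OPCs (-2.65, SE 0.73, adjusted p = 0.00155). Oligodendrocytes were called above astrocytes (-2.35 for astrocytes over oligodendrocytes, SE 0.92, adjusted p = 0.0333) on the counts of 3 of 8 oligodendrocyte libraries, Rag2-/- 1 at 4.35, control 6 at 2.82 and control 1 at 1.02 CPM, the other 5 being at 0. The adjusted p over the alternatives for this contrast ran from 0.0117 to 0.269. OPCs were also called above astrocytes (-2.20, SE 0.82, adjusted p = 0.0285), a call lost without pair 3 (-1.82, adjusted p = 0.106), without the mouse block (-1.85, adjusted p = 0.0702), in control libraries alone (-1.85, adjusted p = 0.216) and in Rag2-/- libraries alone (-2.60, adjusted p = 0.177).

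Steap4 in microglia was the one genotype difference among the 10 genes with an unadjusted p under 0.05 past the filter. Control microglia had 0.946 to 4.72 CPM with a median of 2.95 and Rag2-/- microglia 0.624 to 2.28 with a median of 1.12. The Rag2-/- mouse was lower in 5 of 6 pairs, and the groups overlapped. The difference was -1.14 (SE 0.46, 95% interval -2.10 to -0.18, adjusted p = 0.999), so it was not called, and 2.9% of all genes had an unadjusted p under 0.05 in this comparison.

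Cd109 had 31 counts in astrocytes, 10 in oligodendrocytes, 18 in OPCs and 17 in microglia. The 18 counts in OPCs were in 3 of the 5 Rag2-/- libraries (10, 7 and 1 counts), and the 6 control libraries had 0, which allows up to 0.32 CPM. Fitted without the filter, this difference had an adjusted p of 0.52 in edgeR.

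**Figure D4:**
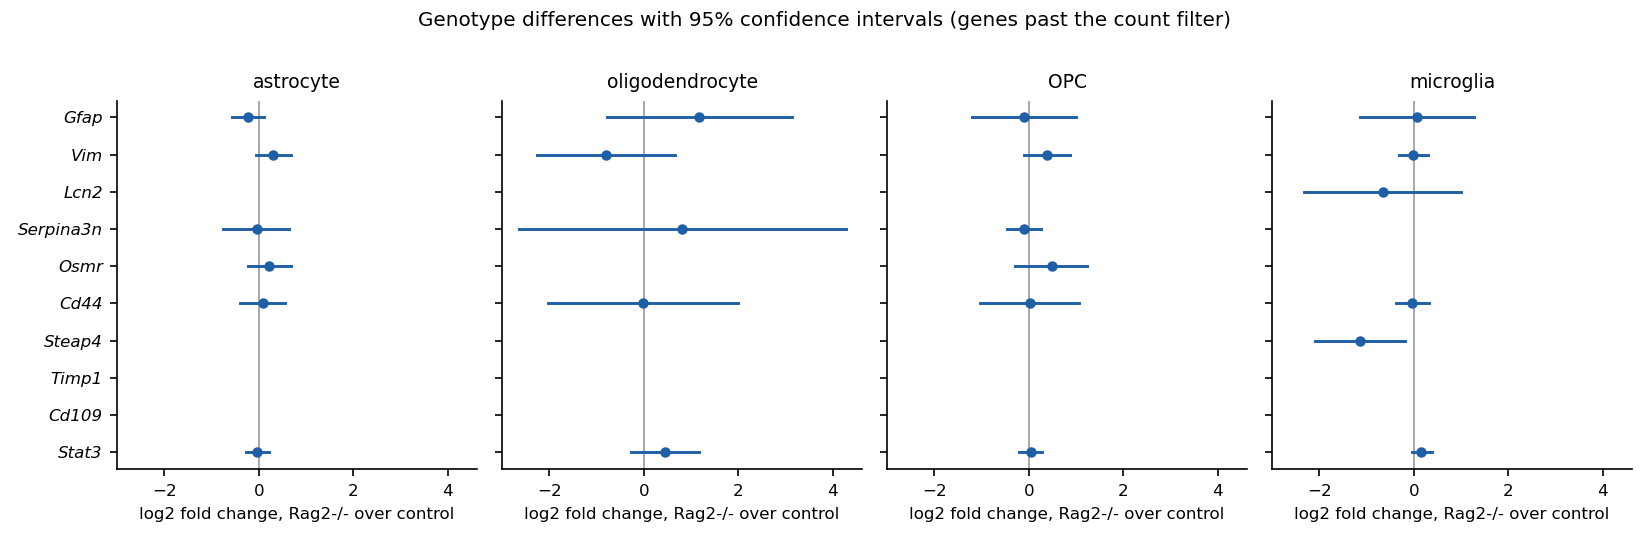
Log2 fold changes of Rag2-/- over control (points) with 95% confidence intervals (lines) from edgeR in astrocytes, oligodendrocytes, OPCs and microglia, for the genes past the count filter. All intervals hold 0 apart from Steap4 in microglia, and those of oligodendrocytes, with 4 libraries a genotype, are the widest for Gfap, Vim, Serpina3n, Cd44 and Stat3.

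Over the 10 genes together, 6 passed the filter of the genotype fit in astrocytes, 5 in oligodendrocytes, 6 in OPCs and 6 in microglia. The number called was 0 in each. At an unadjusted p under 0.05 the number was 0, 0, 0 and 1, beside 2.87%, 3.38%, 4.02% and 2.9% of all genes. DESeq2 on all genes also called 0 of the 10 in each cell type. Of all genes it called 1 of 33355 in astrocytes, 203 of 27050 in oligodendrocytes, 5 of 20956 in OPCs and 3 of 32759 in microglia. The number with no overlap between genotypes was 0 in each cell type, beside 0.136%, 2.35%, 0.385% and 0.133% of all genes. The median difference of the tested genes was 0.02, 0.44, 0.03 and -0.02, beside 0.00, 0.00, -0.01 and -0.01 over all genes, and the 0.44 of oligodendrocytes was the median of 5 genes that ran from -0.81 to 1.17. The p-values measure the spread between mice of these litters.

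Sex, with the same fit, gave 0 called genes among those past the filter in each cell type, beside 0.0407%, 0.0362%, 0.0296% and 0.0467% of all genes in astrocytes, oligodendrocytes, OPCs and microglia, and 0 with an unadjusted p under 0.05, beside 6.73%, 8.23%, 4.3% and 3.92% of all genes. DESeq2 called 0 as well. Of all genes it called 18 of 18374 in astrocytes, 434 of 24319 in oligodendrocytes, 13 of 19732 in OPCs and 11 of 17499 in microglia. The differences of female over male mice ran from -0.28 to 0.02 in astrocytes, from -1.06 to -0.18 in oligodendrocytes, from -0.51 to 0.11 in OPCs and from -0.16 to 0.79 in microglia. In oligodendrocytes the 5 values past the filter were all below 0, with a median of -0.73 beside -0.03 over all genes, and in OPCs 5 of 6 were below 0, with a median of -0.25 beside -0.01. Of the cell type markers 0 were called for sex, and the medians of some lists stood apart from that of all genes. In astrocytes the median difference was -0.87 for OPC, -0.77 for microglia and 0.15 for astrocyte markers. In oligodendrocytes the median difference was -2.18 for border macrophage, 1.36 for mural and 0.98 for neuron markers, and in OPCs -1.56 for border macrophage, -0.59 for microglia and 1.20 for oligodendrocyte markers. Their part in the sex differences was not tested.

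Wider lists of reactive genes were read in the same fits. Of 13 pan-reactive genes, of 11 genes linked to lipopolysaccharide (A1) and of 13 linked to ischaemia (A2), 0 were called for genotype in any cell type by edgeR. DESeq2 called 1 of them, the interferon-induced GTPase gene Iigp1 in oligodendrocytes (adjusted p = 1.63e-08), which did not pass the count filter. This call rested on 1 library, control 3 with 117 counts (15.3 CPM), the other 7 being at 0. In astrocytes 9, 6 and 4 of them passed the filter, with median differences of 0.08, -0.46 and -0.10 beside 0.00 over all genes. Of the pan-reactive genes, a list that holds 8 of the 10 genes, all 12 past the filter were called between astrocytes and microglia, 5 higher and 7 lower in astrocytes. Of the A1 genes 2 were higher and 7 lower than in microglia, and of the A2 genes 1 was higher and 8 lower, with 10 past the filter in each list. Of all genes 72% were called in this contrast, 37.9% higher and 34.1% lower. The antigen-presenting gene H2-D1 was at 14.4 ± 4.11 CPM in astrocytes and 690 ± 86.6 in microglia (SD over 12 libraries each, adjusted p = 7.3e-23), Cd14, a receptor for lipopolysaccharide, at 3.08 ± 3.70 and 601 ± 76.3 (adjusted p = 2.8e-18), and Ggta1, an enzyme of glycan synthesis, at 9.54 ± 2.40 and 109 ± 12.6 (adjusted p = 2.67e-12). Amigo2, an adhesion protein gene, was one of the A1 genes higher in astrocytes, at 9.10 ± 4.04 against 0.563 ± 0.501 in microglia (adjusted p = 4.32e-08), and the glycosyltransferase gene B3gnt5 was the A2 gene that was higher, at 1.43 ± 0.86 against 0.218 ± 0.216 (adjusted p = 0.000336).

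Among 13 intermediate filament genes 8 were called between astrocytes and OPCs, Gfap alone being higher in astrocytes, where 43.1% of all genes were called, 17.8% higher and 25.3% lower. This list holds neurofilament genes, and all 8 neuron markers were called lower in astrocytes too (median -1.33 beside -0.13 over all genes). Nefl is in both lists. Lmna, Nes, Lmnb1 and Des, which are not neurofilament genes, were also called lower in astrocytes (log2 -2.32, -2.15, -2.30 and -4.15). The part of neuronal RNA was not tested. Synm, the filament gene next in level after Vim, was at 21 ± 7.2 CPM in astrocytes (SD, n = 12) and 58.2 ± 16.4 in oligodendrocytes (n = 8, adjusted p = 0.000229). None of these 13 was called for genotype. Of 13 genes that respond to dissociation of tissue, 11 were called lower and 1, Fos, higher in astrocytes than in microglia (background 34.1% lower and 37.9% higher), with a median difference of -2.06 beside 0.12 over all genes. Fos was at 728 ± 110 CPM in astrocytes and 167 ± 35.4 in microglia, Dusp1 at 549 ± 50 and 1053 ± 159, and Egr1 at 260 ± 89.7 and 1498 ± 369 (SD over 12 libraries each). For genotype 0 of these 13 were called in any cell type.

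Variation between mice was read from the 12 astrocyte libraries. Of the 15 pairs of 6 genes past the filter, 0 had a correlation of log2 levels that passed adjustment over the 15. Vim and Cd44 had the smallest p, with r = -0.55 over 12 libraries (permutation p = 0.0649, adjusted p = 0.535) and rho = -0.58 (p = 0.0524, adjusted p = 0.633), and r was -0.34 without the 2 libraries farthest from the median of Vim. Removing the mean of each pair leaves only the differences between its control and its Rag2-/- mouse, so such values also hold the genotype differences. With pair means removed, r of Vim and Cd44 was -0.32 (exact permutation over pairs, p = 0.504, adjusted p = 0.816). By Pearson's r the smallest p then belonged to Osmr and Cd44, with r = 0.79 (exact permutation over pairs, p = 0.0336, adjusted p = 0.329). Next came Gfap and Vim, with r = -0.79 (exact permutation over pairs, p = 0.0438, adjusted p = 0.329). In the Rag2-/- mouse Gfap was lower in 6 of 6 of these pairs and Vim higher in 5 of 6, which enters this r. By Spearman's rho the smallest p belonged to Gfap and Vim, with rho = -0.867 (exact permutation over pairs, p = 0.0148, adjusted p = 0.223). With either measure 0 of 15 passed. For a gene's level in astrocytes against its level in another cell type of the same mouse, 0 of 15 combinations passed. Osmr in astrocytes and OPCs came closest by Pearson's r, with r = 0.61 over 11 mice (permutation p = 0.0448, adjusted p = 0.389) and rho = 0.55 (p = 0.0895). With pair means removed this r was 0.88 over 10 mice (exact permutation over pairs, p = 0.0167, adjusted p = 0.25), which rests on the differences within 5 pairs. The Rag2-/- mouse of pair 1 had the highest Osmr in both cell types and the highest sum of astrocyte markers in OPCs.

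By likeness of log2 levels over all 43 libraries, a description that cell type dominates, the genes most like Gfap were Prdx6, Pdk4 and Cs (r = 0.958, 0.958 and 0.956), those most like Serpina3n were Caskin2, Abtb2 and Gpt2 (0.945, 0.936 and 0.932), and those most like Lcn2 were Gm12966, Chd2 and Rrbp1 (0.820, 0.816 and 0.815). Genes past the filter with a mean of at least 5 CPM in astrocytes were compared, which were 10379 over all libraries. Genes under this level in astrocytes were left out for Lcn2 as well. Over the 12 astrocyte libraries alone they were Ubxn1, Gm13461 and Gfra1 for Gfap (0.927, 0.858 and 0.852) and Rapgef1, Elac1 and Mapkapk2 for Serpina3n (0.906, 0.889 and 0.863). These are the highest values among 10377 genes over only 12 libraries, and how high r rises among unrelated genes was not tested.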

How the data were processed

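RNA of immunopanned cortical glia was amplified with an Ovation V2 kit and sequenced in 43 libraries. Per the labels and the methods of the study, the authors aligned reads with STAR 2.7.8a to GRCm39, counted reads per Ensembl gene by HTSeq and deposited raw counts of 55416 genes per library, of which 54749 matched the annotation used here. Strand and overlap settings are not given in the sources used here. Reads that the counting did not assign to a gene, for whatever reason (33.5% to 52% of a library), stayed out of library sizes. The smallest chi-square per gene between 2 libraries of a group was 8.18, so none was a copy.

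edgeR 4.0.16 (R 4.3.3; quasi-likelihood test, TMM, filterByExpr with a minimum count of 10 and total of 15) fitted sex and genotype in each cell type, and mouse and cell type over all libraries. DESeq2 1.42.0, other scalings, no filter, the littermate pair as a block, other sample sets and leaving out single libraries were alternatives. The block within a cell type and leaving out each library were run for genotype, and for sex only part of the libraries were left out. The scripts were tested on simulated data. Correlations used log2(CPM + 1) and 100000 permutations, or whole pairs permuted exactly where pair means were removed. Intervals for single counts and floors of 3 counts cover counting error only. Littermate pairs are described in the results of the study, and the pair numbers come from the sample titles. Same-pair libraries had a mean correlation of deviations of 0.138 in astrocytes, 0.11 in oligodendrocytes, 0.0859 in OPCs and 0.0847 in microglia.

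The 10 genes and all lists were chosen with earlier results of these data known. Named were all 10 genes, Rag2, of each list up to 4 genes by mean level in astrocytes and any called for genotype, and the 3 genes most like Gfap, Serpina3n and Lcn2. Osm, Iigp1 and the cell type markers S100a9, Ly6g, Tagln, Acta2, Notch3, Lum and Dpt fall outside this rule and were named after their values were seen. The same holds for the filament genes Nefl, Nes, Lmnb1 and Des.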

Additional observations from a re-analysis of the deposited data

Results flagged for a closer look

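In 17 of 76 groups of 4 to 6 libraries 1 library stood apart from the rest by Dixon's criterion, and 11 of these were of Lcn2, Timp1 or Cd109, genes with few counts. Chance meets this criterion in about 1 in 20 groups of normally distributed values. Where all other libraries are at 0, any count meets it, so that rate is no yardstick for the 17. Lcn2 was at 0.499 CPM in astrocyte control 4 (4 counts), 0.0974 in astrocyte Rag2-/- 3 (1 count) and 0.0862 in OPC Rag2-/- 4 (1 count), where the other libraries of each group were at 0, and at 5.56 in microglia control 6. Timp1 was at 0.249 in astrocyte control 4, 0.974 in astrocyte Rag2-/- 3 and 1.38 in microglia control 2. Cd109 was at 1.21 in astrocyte control 5, 0.523 in oligodendrocyte control 3, 0.652 in oligodendrocyte Rag2-/- 1 and 0.701 in microglia control 5.

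Steap4 was at 0.801 CPM in astrocyte Rag2-/- 1 and 4.35 in oligodendrocyte Rag2-/- 1, with the rest of both groups at 0. Serpina3n was at 1.62 in microglia Rag2-/- 5, next to 0.193 in the library below it. Osmr was at 3.74 in microglia control 2 and 4.54 in microglia Rag2-/- 6. Stat3 was at 326 in microglia Rag2-/- 3, above 277 in the next library.

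Gfap went in opposite directions between genotypes in 2 cell types: it was higher in the Rag2-/- mouse in 0 of 6 astrocyte pairs and in 4 of 4 oligodendrocyte pairs. Pair 6 differs in sex too, and the share of all genes with 1 direction in every pair is not given here. The edgeR test of the interaction of genotype with cell type gave an adjusted p of 1 for Gfap.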

How the results depend on the processing

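The number of the 10 genes called for genotype was 0 under each alternative run. These held the replicate block of littermate pairs and each left-out library, so this block changed no call. For sex it was 0 as well, over fewer alternatives, without this block and with only part of the libraries left out. Between cell types all counts of called genes stayed within 1.5 times the main ones except astrocytes against OPCs in Rag2-/- libraries alone, with 3, a fit on fewer samples. Of the listed genes DESeq2 called 1, Iigp1. Without the mouse block the counts for astrocytes against OPCs and oligodendrocytes against microglia were 4 and 6.

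Signs of uncalled differences turned in these fits. With pairs of Rag2+/- controls alone they became 0.04 for Stat3 in astrocytes, 0.45 for Gfap, -0.20 for Cd44 and -0.00 for Stat3 in OPCs, and 0.19 for Lcn2 in microglia. Serpina3n in astrocytes became 0.02 with the replicate block, Cd44 became -0.03 in OPCs without a sex term and 0.01 in oligodendrocytes without the filter, and for sex in astrocytes Gfap became 0.00 without the filter and Stat3 -0.01 with DESeq2 and its size factors. For astrocytes against oligodendrocytes Serpina3n became -0.22 with no replicate block and -0.10 without the oligodendrocyte libraries of pair 5, and Stat3 -0.04 without them. With total counts and without mitochondrial genes, Vim became -0.35 and -0.21 for astrocytes against OPCs, and Cd44 -0.84 (called, adjusted p = 0.0375) and -0.24 and Steap4 -0.86 and -0.25 for oligodendrocytes against OPCs. In the latter contrast Cd44 became -0.24 without pair 3, Gfap 0.09 and Steap4 -0.48 in Rag2-/- libraries alone, and Lcn2 0.41 in control libraries alone and 0.99 with DESeq2, values without meaning since these cells held 1 count of Lcn2 in all and 0 in the control libraries. Osmr for oligodendrocytes against microglia became -0.28 with total counts and -0.18 without the oligodendrocyte libraries of pair 5. The cause was not tested.

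Leaving out each library gave these genotype ranges across 0: in astrocytes Serpina3n -0.19 to 0.19, Cd44 -0.01 to 0.25 and Stat3 -0.12 to 0.01; in oligodendrocytes Serpina3n -0.48 to 2.44 and Cd44 -1.16 to 0.55; in OPCs Gfap -0.47 to 0.40, Cd44 -0.52 to 0.35 and Stat3 -0.00 to 0.11; in microglia Gfap -0.29 to 0.36, Vim -0.11 to 0.12 and Cd44 -0.14 to 0.10. For sex, only part of the libraries were left out in turn: 6 in astrocytes, 4 in oligodendrocytes, 6 in OPCs and 6 in microglia. The ranges across 0 were Gfap -0.08 to 0.03, Cd44 -0.17 to 0.11 and Stat3 -0.04 to 0.02 in astrocytes. They were Serpina3n -0.77 to 0.73 in oligodendrocytes, and Gfap -0.98 to 0.04, Serpina3n -0.13 to 0.00 and Osmr -0.05 to 0.25 in OPCs. In microglia they were Cd44 -0.15 to 0.02 and Steap4 -0.42 to 0.04. Of the other values for single genes, 835 kept their direction and side of the threshold or stayed within their spread, 19 lost a call, 8 gained one and 27 levels moved. Depth limits Lcn2 outside microglia, Timp1 and Cd109, most of whose libraries held under 10 counts.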
